A study of Homo sapiens with 3 samples.

Results

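The cells described here are the HT29 cells of a Caco-2 and HT29 co-culture that hold the largest share of transcripts of 5 genes, NDRG1, PYGB, AQP1, QSOX1 and P4HA2. The rule kept barcodes with at least 1500 unique molecular identifiers (UMIs, tags that mark each captured RNA molecule), at least 700 detected genes and at most 20% of UMIs on mitochondrially encoded genes. Of these it took as HT29 cells those with at least 0.1% of their UMIs on LYZ, KRT20, LCN2, CD24, CD44, CST6, TCN1 and BMP4, under 0.5% on the Caco-2 apolipoprotein genes APOA1 and APOC3, and under 5 UMIs of the goblet genes MUC2 and FCGBP. The 10% of HT29 cells with the largest share of UMIs on the 5 genes (the score) were then taken in each library. They were thus selected on measured values of these 5 genes. They are called high cells below, and the HT29 cells that remain are called the rest. There were 255 high cells among 2546 HT29 cells, 15560 kept cells and 19144 barcodes. Control 1 gave 70 high cells and 630 of the rest, control 2 gave 100 and 900, and LPS 1 gave 85 and 761.

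The study grew the colorectal cancer lines Caco-2 (passage 8) and HT29 (passage 13) together on Transwell inserts, seeded at 9 Caco-2 cells to 1 HT29 cell. It sequenced 3 libraries of single cells from co-culture, all harvested on day 23. Of these libraries, 2 were untreated controls. The other came from co-culture given 1 ng/ml of Escherichia coli O111:B4 lipopolysaccharide (LPS, a component of the bacterial outer membrane) in the apical chamber from day 22 for 24 hours. Each line is a tumour-derived line, samples under 70% viability passed through dead-cell removal before loading, and the labels do not say which samples did. The deposited totals were 33893707 UMIs in control 1, 27934953 in control 2 and 24185467 in LPS 1, and the UMIs summed over the high cells were 290858, 342390 and 274030. Control 1 shared 9 barcodes with control 2 and 9 with LPS 1, and control 2 shared 11 with LPS 1. Of these 29 barcodes 3 were HT29 cells and 0 were high cells.

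NDRG1, P4HA2 and many genes of glucose use belong to the response to hypoxia-inducible factors (HIF), transcription factors whose alpha subunits are hydroxylated by the EGLN enzymes and degraded while oxygen is plentiful. When oxygen is low, HIF accumulates and induces glucose uptake, glycolysis, angiogenic factors and the enzymes that hydroxylate collagen, and it lowers the use of pyruvate by mitochondria. In the intestine the epithelium lies along a steep fall in oxygen from the blood to the lumen, and in culture the oxygen that reaches a cell depends on the depth of medium and on its neighbours.

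The label HT29 was compared with the study's lists of genes that mark each line in bulk RNA, of which 376 HT29 genes and 706 Caco-2 genes were used. The HT29 list includes 6 of the 8 genes of the rule. The median ratio of UMIs on the HT29 list to those on the Caco-2 list was 0.691, 0.666 and 0.703 in the high cells of control 1, control 2 and LPS 1. It was 0.727, 0.693 and 0.659 in the rest and 0.174, 0.171 and 0.171 in the kept cells outside the HT29 rule. High cells therefore sat with HT29 cells on this ratio, and 1, 5 and 2 of them fell under 0.5, against 81, 137 and 103 cells of the rest (12.9%, 15.2% and 13.5%). Of 10 Caco-2 enterocyte markers, those at 0 in all high cells included FABP2 and SI, and the summed level of the list was 134, 216 and 325 CPM (UMI counts scaled to a common total per summed group of cells) in high cells against 1047, 1053 and 1124 CPM in the rest. APOA1, the main apolipoprotein of high-density lipoprotein, was the most abundant of them. APOA1 and APOC3 belong to the rule, and over the 4 other tested members, which moved with that limit, the median log2 fold change was -2.34, and -0.34 over 3 members when the limit was 0.1%. The whole Caco-2 list went the other way, with 16.3%, 16.6% and 16.2% of UMIs in high cells and 15.8%, 15.8% and 15.7% in the rest. The part of these differences in the results was not tested beyond the values given below for HT29 cells with a ratio of 0.5 or more. Of 8 enteroendocrine markers, 7 were at 0 in all high cells. Only 1 had enough counts to be tested, and the list summed to 53.8, 81.4 and 46.0 CPM in the rest. Of 9 goblet markers 5 were tested, and MUC2, which the rule limits, SPINK4, ITLN1 and CLCA1 were at 0. Zeros of genes with so few counts say little of identity.

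The 5 genes that chose the cells, and APOL1 and ERRFI1, which were listed as their markers with these data known, are described without a test. NDRG1, a hydrolase-fold protein induced by hypoxia and other stresses, was at 5216, 6496 and 5824 CPM in the high cells of control 1, control 2 and LPS 1, at 529.96, 1231 and 733 CPM in the rest and at 232, 236 and 283 CPM in the kept cells outside the HT29 rule. P4HA2, a catalytic subunit of the collagen prolyl 4-hydroxylase, was at 1949, 2289.8 and 1996 CPM against 563, 686 and 452 CPM. All high-cell values of these 2 genes lay above all values of the rest.

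PYGB (ENSG00000100994), the brain form of glycogen phosphorylase that releases glucose 1-phosphate from glycogen, was at 1189.6, 1606 and 1459.7 CPM in high cells and 302, 392 and 335 CPM in the rest. QSOX1 (ENSG00000116260), a sulfhydryl oxidase that makes disulfide bonds in secreted proteins, was at 928, 1095 and 949 CPM against 271, 307 and 262 CPM. AQP1 (ENSG00000240583), a water channel, was at 364, 313 and 325 CPM against 62.2, 71.1 and 57.1 CPM. These genes too were higher in all 3 libraries of high cells, and outside the HT29 rule AQP1 was at 2.24, 3.40 and 3.72 CPM. ERRFI1, a feedback inhibitor of the EGF receptor, was at 619, 555 and 409 CPM in high cells and 153, 197 and 166 CPM in the rest. APOL1, a secreted apolipoprotein with trypanolytic activity, was at 182, 245 and 186 CPM and 35.6, 53.2 and 39.4 CPM. Neither marker overlapped between the groups.

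**Figure D1:**
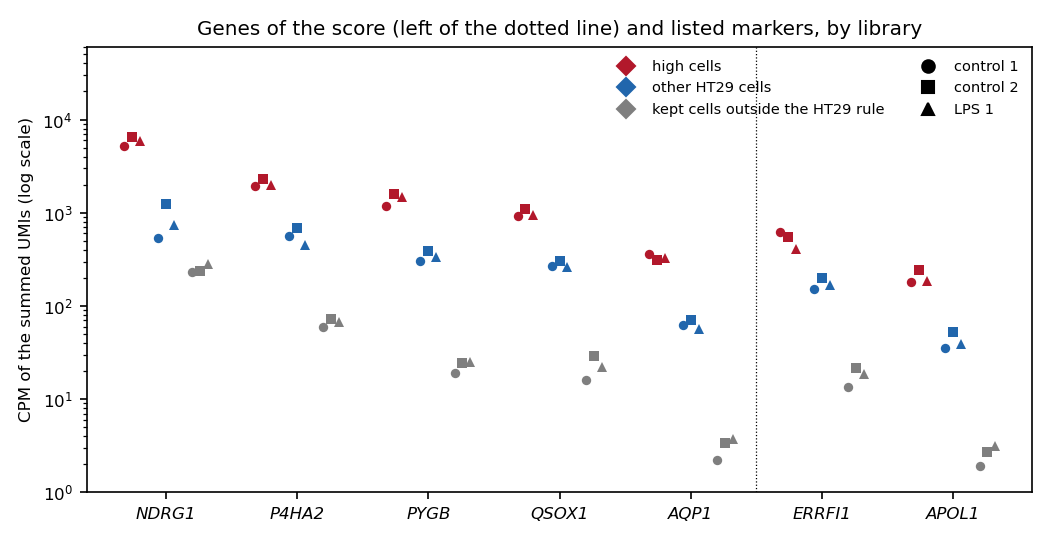
CPM (log scale) of the UMIs summed over the high cells (red), the rest of the HT29 cells (blue) and the kept cells outside the HT29 rule (grey), one point per library. Genes left of the dotted line chose the cells, and in each gene the 3 high-cell points lie above the 3 points of the rest, which lie above those outside the rule.

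The lowest score of a high cell was 0.594% of UMIs in control 1, 0.820% in control 2 and 0.627% in LPS 1, and the highest score among the rest was 0.590%, 0.813% and 0.624%. The medians were 0.898%, 1.05% and 0.892% in high cells, 0.144%, 0.240% and 0.165% in the rest, and 0.0185%, 0.0157% and 0.0193% outside the HT29 rule. Because the rule takes a fixed 10% of each library, the number of high cells says nothing about conditions, and a common threshold of 0.707%, the mean of the thresholds of the 2 controls, was used to compare libraries. Above it lay 7.14% of the HT29 cells of control 1 (exact binomial 95% interval 5.35 to 9.31%), 13.2% of those of control 2 (11.2 to 15.5%) and 7.45% of those of LPS 1 (5.77 to 9.43%). The interval of LPS 1 overlapped that of control 1 and not that of control 2, so the controls differed from each other by more than LPS 1 differed from control 1. These intervals cover counting error only.

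NDRG1 made up 54.1%, 55.0% and 55.2% of the score UMIs of high cells in control 1, control 2 and LPS 1 and 30.6%, 45.8% and 39.9% in the rest. When a gene was left out of the score and its own level was then read, the high cells were still richer in it. The score genes and markers were chosen with these data known. The folds in this paragraph therefore describe the chosen set and are no separate support for it. NDRG1 was 4.41, 3.28 and 4.65 times the level of the rest in control 1, control 2 and LPS 1, AQP1 was 4.92, 3.81 and 5.31 times, and PYGB was 3.50, 3.38 and 3.73 times. QSOX1 was 2.97, 2.99 and 2.99 times and P4HA2 was 2.84, 2.61 and 3.005 times the level of the rest. Without NDRG1 in the score, 68.6%, 62% and 68.2% of the high cells stayed among them. Ranking the cells on a random part of their UMIs and reading the other part gave folds of 7.70, 4.42 and 7.41 for NDRG1, 6.33, 4.10 and 4.92 for AQP1 and 6.14, 3.33 and 4.68 for APOL1.

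The genes were detected unevenly among the high cells. A UMI of AQP1 was found in 48.6%, 50% and 49.4% of the high cells, in 23.5%, 21.9% and 15.9% of the rest and in 1.09%, 1.35% and 1.02% of the kept cells outside the rule, whose median depth was 5543, 4307 and 3667 UMIs and whose share, of free RNA or of transcripts of their own, stands here as a background. PYGB was found in 88.6%, 85% and 85.9% of high cells, in 64.0%, 62.2% and 60.6% of the rest and in 8.35%, 8.40% and 7.02% of the cells outside the rule. After every cell had been thinned to 1500 UMIs, AQP1 was found in 32.9%, 35% and 32.9% of high cells and in 7.94%, 9.56% and 8.80% of the rest. About as many high cells lacked a detected AQP1 transcript as carried one. Across the HT29 cells of a library the score genes correlated weakly, from a mean r of 0.133 for AQP1 with NDRG1 to 0.329 for P4HA2 with NDRG1. These values are descriptive and no finding by themselves, and the part of sparse counts and of cell depth in them was not tested.

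High cells were smaller libraries than the rest. Their median was 3644.5, 3444.5 and 2930 UMIs in control 1, control 2 and LPS 1, against 5450, 3806 and 3840 in the rest. Their median share of UMIs on ribosomal protein genes was 9.49%, 10.8% and 11.8% against 17.4%, 19.2% and 19.7%, on mitochondrially encoded genes 1.89%, 2.45% and 2.47% against 3.19%, 3.02% and 3.82%, and on the nuclear long noncoding RNA MALAT1 9.16%, 8.31% and 6.57% against 5.83%, 5.60% and 5.47%. High cells were therefore lower in depth, ribosomal share and mitochondrial share and higher in MALAT1 in all 3 libraries. The part of these differences in the results below was not tested beyond the counts given for thinned cells, for cells with a low MALAT1 share and for counts without these genes. The automatic threshold of the doublet scores marked 0 cells, and the 6% of kept cells with the highest scores included 0, 1 and 0 high cells and 27, 57 and 46 of the rest in control 1, control 2 and LPS 1.

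The main comparison set the summed counts of the high cells against those of the rest within each library. Of 10045 genes tested, 2546 passed an adjusted p of 0.05 (25.3%), 1199 higher in high cells (11.9%) and 1347 lower (13.4%), by edgeR's quasi-likelihood test with the library as a term and Benjamini-Hochberg adjustment. The p-values measure only the spread between 3 libraries, which the labels do not say came from independent cultures, and the cells compared were ranked on the score in the same libraries. Since the summed CPM of high cells and the rest differ in composition, the median gene was 0.18, 0.15 and 0.17 higher in high cells on the log2 CPM scale of control 1, control 2 and LPS 1, and the log2 fold changes below are relative to a fitted median near 0. The 3 libraries of high cells lay wholly above those of the rest in 26.8% of genes tested and wholly below in 15.1% (41.8% in all), the background against which a lack of overlap below is read. When the score came from one random part of the UMIs and the counts from the other, 1480 genes passed, of which 1365 were also among the 2546 with the same direction, 92.2% of the former and 53.6% of the latter. Among HT29 cells with an HT29 to Caco-2 list ratio of 0.5 or more, 2075 genes passed, and 1956 of them were shared with the same direction.

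Genes of the HIF response were the list with the most members higher in high cells, a count that also depends on list length. NDRG1 and P4HA2, which helped to choose the cells, belong to the same response. In control 1, control 2 and LPS 1 they gave 54.1%, 55.0% and 55.2%, and 20.2%, 19.4% and 18.9%, of the score UMIs of high cells. Genes that vary with NDRG1 and P4HA2 were thus favoured by the ranking, and their rise is no separate support for a HIF response. Of 40 listed genes 37 were tested, 26 were higher and 2 lower, and the median log2 fold change was 0.76, against -0.0004 over all genes tested. The number higher ranged from 17 to 31 over the alternatives, with the lowest in cells thinned to 1500 UMIs. It was 24 of 35 tested with separate UMIs for ranking and counting, 24 of 36 in the cells with an HT29 to Caco-2 list ratio of 0.5 or more, and 23 of 35 in the cells with a MALAT1 share at or under the library median. SLC2A1 (ENSG00000117394), the glucose transporter GLUT1, was at 2836, 2959 and 2664 CPM in high cells of control 1, control 2 and LPS 1 and at 926, 1167 and 936 CPM in the rest. All 3 high-cell values were above those of the rest, with a log2 fold change of 1.29 (SE 0.09) and an edgeR adjusted p of 1.81e-13. VEGFA, the main angiogenic growth factor, was at 1523, 1694 and 1657 CPM against 536, 766 and 625 CPM, with a log2 fold change of 1.15 (SE 0.09).

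Members of the HIF list with other roles passed too. ANGPTL4, an inhibitor of lipoprotein lipase, was at 48.1, 58.4 and 58.4 CPM in high cells and 10.2, 20.1 and 13.5 CPM in the rest, with a log2 fold change of 1.70 (SE 0.28). ADM, the vasodilator peptide adrenomedullin, had a log2 fold change of 1.00 (SE 0.14). Neither gene overlapped between the groups. Of the enzymes that sense oxygen or feed back on HIF, EGLN3, a HIF prolyl hydroxylase, was at 481, 412 and 376 CPM against 206, 264 and 187 CPM, with a log2 fold change of 0.76 (SE 0.12). CA9, a membrane carbonic anhydrase that is a common marker of hypoxic tumour cells, was at 347, 277 and 270.04 CPM in high cells, 163, 204 and 155 CPM in the rest and 9.08, 12.2 and 13.4 CPM outside the HT29 rule. Its log2 fold change was 0.58 (SE 0.13) with an edgeR adjusted p of 7.64e-04, and the larger step for CA9 lay between HT29 cells and the kept cells outside the rule. NDUFA4L2, a HIF target that lowers complex I activity, was similar, at 1186, 1349 and 1306 CPM against 738, 918 and 743 CPM and a mean of 44.6 CPM outside the HT29 rule, with a log2 fold change of 0.49 (SE 0.09) between high cells and the rest. PDK1, which phosphorylates pyruvate dehydrogenase and so keeps pyruvate out of mitochondria, rose by 1.05 (SE 0.15) on the log2 scale. The transcriptional repressors MXI1 and BHLHE40 rose by 1.09 (SE 0.13) and 1.09 (SE 0.17), and DDIT4, an inhibitor of mTORC1, by 0.51 (SE 0.10).

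Of the HIF list 2 genes fell, but only 1 with DESeq2, with a limit of 0.1% on APOA1 and APOC3, or with a list ratio of 0.5 or more. BNIP3, a mitophagy receptor, was at 0, 0 and 14.6 CPM in high cells and 29.4, 24.8 and 29.4 CPM in the rest, with a log2 fold change of -2.83 (SE 0.57), while its relative BNIP3L rose by 0.73 (SE 0.14). SLC2A3, the glucose transporter GLUT3, was at 0, 32.1 and 51.1 CPM against 101, 133 and 151 CPM, with a log2 fold change of -2.42 (SE 0.27). Both genes were far more abundant outside the HT29 rule, with means of 227 and 643 CPM over the 3 libraries, and the log2 fold change of SLC2A3 was -1.04 among HT29 cells with a list ratio of 0.5 or more.

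**Figure D2:**
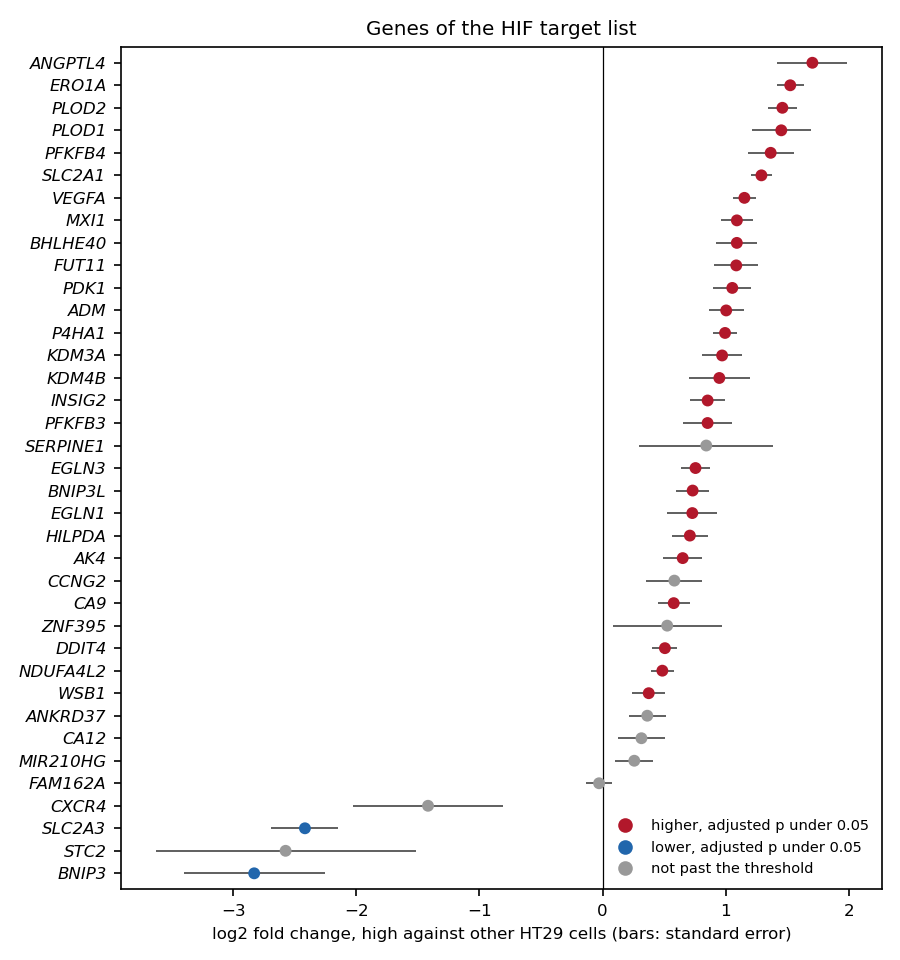
Log2 fold change of high cells against the rest of the HT29 cells for the 37 tested genes of the HIF target list, with standard errors from the edgeR fit. The 26 genes in red passed the threshold above 0 and the 2 in blue, SLC2A3 and BNIP3, below it.

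Of 19 glycolysis genes 12 were higher and 3 lower, with a median log2 fold change of 0.37, and 7 to 14 were higher over the alternatives, 8 of them among HT29 cells with a list ratio of 0.5 or more. Without control 1 or control 2 the number lower was 1, LDHB, and GAPDH and PFKM no longer passed. HK2, the hexokinase that traps glucose and is bound to mitochondria, was at 162, 204 and 124 CPM in high cells and 36.6, 52.7 and 42.4 CPM in the rest, and its log2 fold change was 1.71 (SE 0.16). PFKFB4 and PFKFB3, which make the activator of phosphofructokinase, rose by 1.37 (SE 0.19) and 0.85 (SE 0.20) on the log2 scale, and PFKP and PFKL, phosphofructokinase subunits, by 0.81 (SE 0.12) and 0.87 (SE 0.16). PKM, pyruvate kinase, was at 2981, 2392 and 2511 CPM against 1328, 1189 and 1095 CPM, with a log2 fold change of 0.93 (SE 0.09). SLC16A3, the lactate exporter MCT4, was at 371, 362 and 347 CPM against 111, 131 and 119 CPM, with a log2 fold change of 1.38 (SE 0.12). The changes were smaller in PGK1, phosphoglycerate kinase, at 0.34 (SE 0.09), and in LDHA, the lactate dehydrogenase subunit that favours lactate, at 0.28 (SE 0.09). GAPDH overlapped between the groups, with 4831, 4875 and 4780.5 CPM against 5096, 5647 and 4559 CPM, and its log2 fold change was -0.27 (SE 0.08) with an edgeR adjusted p of 0.0130. The muscle subunit of phosphofructokinase, PFKM, fell by 1.27 on the log2 scale, and LDHB, the subunit that favours pyruvate, was at 193, 193 and 215 CPM against 481, 439 and 502 CPM, a log2 fold change of -1.44 (SE 0.12).

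PYGB, which chose the cells, belongs to glycogen metabolism. Of the 22 others listed 17 were tested, and 3 were higher and 0 lower, beside 11.9% and 13.4% of all genes tested. Their median log2 fold change was 0.43, but 0 were higher with separate UMIs for ranking and counting and 1 with any library left out. The 3 were GSK3B, a kinase that inhibits glycogen synthase, with a log2 fold change of 0.79 (SE 0.17), GBE1, the branching enzyme, with 1.18 (SE 0.44), and PPP1R3E, a glycogen-targeting phosphatase subunit, with 1.38 (SE 0.50). GBE1 was rare, at 17.2, 17.5 and 21.9 CPM in high cells. Of 6 other aquaporins 3 were tested and 0 passed, and the median was 0.15, a sign that 17 of 23 alternatives reversed. APOL2, a neighbour of APOL1 in the apolipoprotein L cluster, was at 41.3, 49.7 and 51.1 CPM in high cells and 8.96, 14.5 and 15.3 CPM in the rest, with a log2 fold change of 1.68 (SE 0.30). It was the only one of the 3 tested relatives of APOL1 to pass. Of 6 relatives of NDRG1 and the kinases that phosphorylate it, 3 were tested and 1, the kinase SGK1, was higher, by 0.63 (SE 0.16) on the log2 scale, a call lost without control 2.

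QSOX1 and P4HA2, which chose the cells, act on the folding of secreted proteins. Of 18 other genes of disulfide formation and collagen modification 16 were tested, 8 were higher and 0 lower, with a median log2 fold change of 0.67. ERO1A, the oxidase that recharges protein disulfide isomerase, was at 584, 730.2 and 642 CPM in high cells and 149.5, 258 and 194 CPM in the rest, and its log2 fold change was 1.52 (SE 0.11). P4HB, protein disulfide isomerase and the other subunit of the collagen prolyl 4-hydroxylase, was at 1207, 1209 and 938 CPM against 363, 412 and 387 CPM, with 1.33 (SE 0.10). PLOD2, which hydroxylates collagen lysines, was at 719, 596 and 496 CPM against 172, 210.4 and 189.9 CPM, with 1.46 (SE 0.12). No high-cell library overlapped with the rest in these 3 genes. P4HA1, the partner isoform of P4HA2, rose by 1.00 (SE 0.10) on the log2 scale, PLOD1 by 1.45 (SE 0.24), PDIA3 by 0.95 (SE 0.10), PDIA4 by 0.92 (SE 0.16) and PLOD3 by 0.59 (SE 0.15). P4HA1, PLOD1, PLOD2 and ERO1A were also counted in the HIF list.

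Of 20 genes of the unfolded protein response 10 were higher and 0 lower, with a median of 0.36. They were mainly chaperones of the endoplasmic reticulum. HSPA5 (BiP) was at 1207, 1197 and 733 CPM in high cells and 306, 485 and 339 CPM in the rest, a log2 fold change of 1.28 (SE 0.12). The co-chaperone DNAJB9 rose by 1.20 (SE 0.15), HYOU1 by 1.08 (SE 0.19), the lectin chaperones CANX and CALR by 1.03 (SE 0.11) and 0.86 (SE 0.12), and HSP90B1 by 0.46 (SE 0.10).

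The promoters of the HIF list were searched for the core letters to which HIF binds, ACGTG, and the variant GCGTG, on both strands in the 250 bases before the RefSeq start of each gene (GRCh38.p14). The palindrome CACGTG holds ACGTG on both strands and was counted on each. Of 40 genes of the list 31 matched a promoter, and 58.1% of these held ACGTG, against 18.7% of all 27305 promoters, 24.5% of the promoters of genes tested, 27.0% of 927 promoters of genes higher in high cells and 24.7% of 1084 promoters of genes lower. GCGTG was in 54.8% of the list and in 46.5% of the promoters of genes tested, 42.4% of those of genes higher and 47.7% of those of genes lower. Of 10 promoters among the 15 largest rises 2 held ACGTG. Of the 4 score genes that matched a promoter, 1, QSOX1, held ACGTG, PYGB held GCGTG, and neither was found in AQP1 or P4HA2. The windows of SLC2A1, EGLN3 and PDK1 of the HIF list and of the marker ERRFI1 also held neither. The windows of QSOX1 and PYGB, which chose the cells, and of CA9 and ERO1A, which moved with them, are shown 5′ to 3′ on the strand of the gene. Capitals mark either set of letters, read on either strand.
QSOX1, chr1:180154619-180154868, plus strand: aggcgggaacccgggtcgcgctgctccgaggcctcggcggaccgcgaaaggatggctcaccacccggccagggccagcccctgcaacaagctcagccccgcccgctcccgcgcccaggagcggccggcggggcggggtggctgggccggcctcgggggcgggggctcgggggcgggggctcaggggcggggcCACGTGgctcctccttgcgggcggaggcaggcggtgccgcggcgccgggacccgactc
PYGB, chr20:25247835-25248084, plus strand: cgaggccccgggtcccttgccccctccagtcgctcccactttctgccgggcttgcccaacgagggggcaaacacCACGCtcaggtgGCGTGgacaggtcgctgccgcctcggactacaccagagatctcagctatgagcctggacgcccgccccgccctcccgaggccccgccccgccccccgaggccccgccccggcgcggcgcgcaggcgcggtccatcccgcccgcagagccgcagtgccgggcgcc
CA9, chr9:35673678-35673927, plus strand: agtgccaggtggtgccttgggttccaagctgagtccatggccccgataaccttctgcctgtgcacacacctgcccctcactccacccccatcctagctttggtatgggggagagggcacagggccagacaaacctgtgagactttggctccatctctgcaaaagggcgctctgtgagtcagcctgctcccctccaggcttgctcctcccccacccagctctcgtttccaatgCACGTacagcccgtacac
ERO1A, chr14:52695559-52695808, minus strand: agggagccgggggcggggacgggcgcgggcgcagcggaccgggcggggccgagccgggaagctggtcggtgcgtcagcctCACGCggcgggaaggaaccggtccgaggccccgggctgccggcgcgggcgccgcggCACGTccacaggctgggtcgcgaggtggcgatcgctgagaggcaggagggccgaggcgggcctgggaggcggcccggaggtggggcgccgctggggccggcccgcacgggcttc
In QSOX1 the capitals form the palindrome CACGTG, in PYGB they lie far from the start site, and in CA9 they lie close to it. A match of these letters is a description of the window and not a bound site, and a window without them says nothing of the factor.

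Genes whose level followed the score most closely over single HT29 cells were largely members of the same lists. Over 4580 genes detected in at least 10% of the HT29 cells of every library, the highest mean correlation of log2(CPM + 100) with the log2 score was 0.586 for SLC2A1, followed by 0.522 for VEGFA. Next came ATP1B1, the beta subunit of the sodium pump, with 0.506 and NDUFA4L2 with 0.502. PGK1, PKM, P4HA1, AGRN, LDHA and SLC6A8 completed the 10 genes, with 0.474 down to 0.427. These are averages over 3 libraries of cells that share a library and vary in depth, and carry no test. ATP1B1 was at 2431, 2223 and 1974 CPM in high cells and 909, 913 and 888 CPM in the rest, without overlap, and its log2 fold change was 1.09 (SE 0.09).

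Along deciles of the HT29 cells by score, the summed level of the HIF list climbed gradually. In control 1 it went from 2992 CPM in the lowest decile to 13096 CPM in the high cells, in control 2 from 3469 to 13517 CPM and in LPS 1 from 2862 to 12433 CPM. The glycolysis list went from 8345 to 18930 CPM, from 8758 to 17918 CPM and from 8474 to 17221 CPM. Both groups of genes were thus already raised in the deciles just under the high cells. The nuclear genes of the respiratory chain went the other way, from 9241 to 5721 CPM, from 8748 to 5993 CPM and from 9903 to 6258 CPM, and ribosomal protein genes fell from 226443 to 115269 CPM in control 1, from 221206 to 116557 CPM in control 2 and from 232974 to 130113 CPM in LPS 1.

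**Figure D3:**
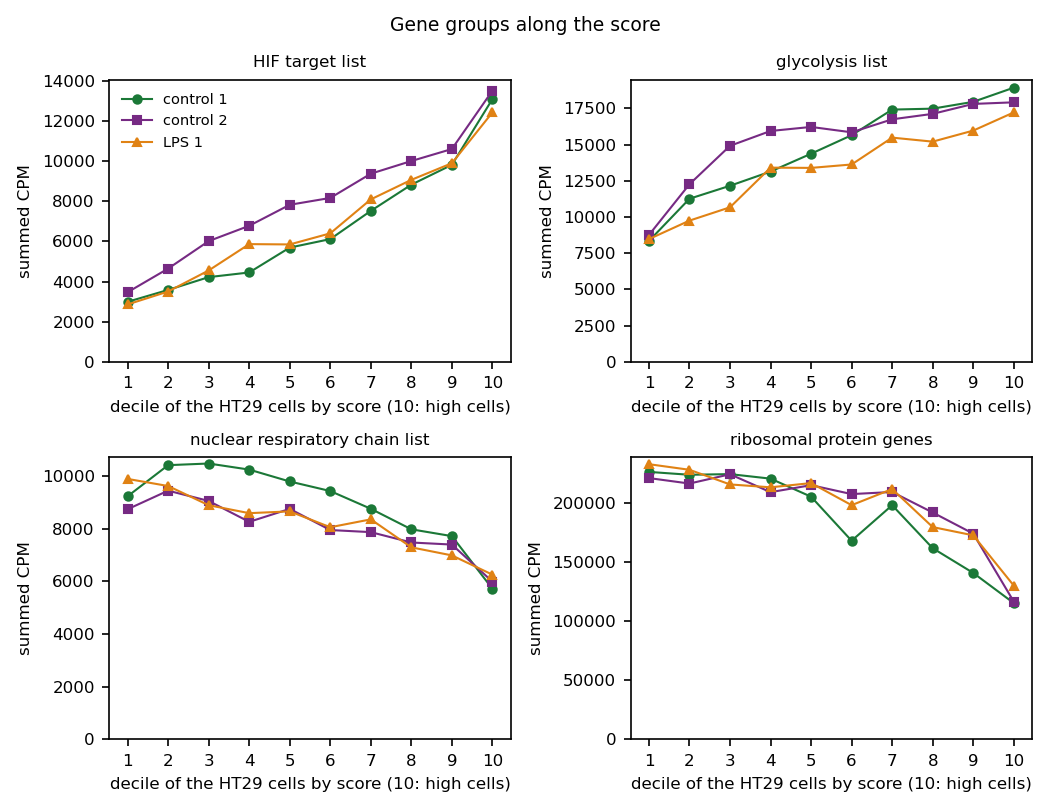
Summed level (CPM) of 4 gene groups in deciles of the HT29 cells by score, lowest on the left and the high cells at 10, one line per library. The HIF list climbed from 2992 to 13096 CPM in control 1, and the ribosomal protein genes fell from 226443 to 115269 CPM.

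Of 27 nuclear genes of the respiratory chain 20 were lower and 1 higher, with a median log2 fold change of -0.67. NDUFA4, a subunit of cytochrome c oxidase, was at 203, 199 and 182 CPM in high cells and 425, 395 and 381 CPM in the rest, a log2 fold change of -1.24 (SE 0.13). COX5A, a further subunit of that enzyme, and ATP5MC3, of ATP synthase, fell by 1.21 and 1.17 on the log2 scale. The exception was SDHA, the catalytic subunit of succinate dehydrogenase, at 103, 175 and 153 CPM against 86.5, 94.7 and 94.03 CPM, with a log2 fold change of 0.46 (SE 0.16) and an edgeR adjusted p of 0.0280, a call lost under 16 of 23 alternatives, without control 2, without LPS 1 and with DESeq2 included. Of the 13 mitochondrially encoded genes 12 were lower, with a median of -0.45, but the number lower was 4 when NDRG1 was left out of the score. MT-ND3, a subunit of complex I, was at 1141, 1790.4 and 1868 CPM against 2310.1, 2642 and 3779.97 CPM.

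Ribosomal protein genes, a list chosen after the data had been seen, had 75 of 81 tested members lower and 0 higher, with a median log2 fold change of -1.003. RPS27A, which encodes ubiquitin fused to a ribosomal protein, was at 1564, 1703 and 1729.7 CPM in high cells and 3807, 3887 and 4068 CPM in the rest. These genes have many processed copies, so the share of reads each one kept is uncertain. With ribosomal, mitochondrial and MALAT1 UMIs left out of the counts, 2411 genes passed, 2174 of them shared with the 2546 in the same direction and 1 in the opposite direction, and of the HIF list 26 were higher and 2 lower.

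Of 18 tested genes of G2 and mitosis 10 were lower and 0 higher, with a median log2 fold change of -1.79, and among HT29 cells with a list ratio of 0.5 or more 12 of 17 were lower. Of 13 tested S phase genes 2 were lower and 0 higher, a share near the 13.4% of all genes, with a median of -1.14, and 0 were lower with DESeq2, in thinned cells and with separate UMIs. TOP2A, the topoisomerase of dividing cells, was at 20.6, 49.7 and 14.6 CPM in high cells and 81.4, 104 and 109 CPM in the rest, a log2 fold change of -1.93 (SE 0.25). UBE2C, a ubiquitin-conjugating enzyme of mitosis, was at 10.3, 20.4 and 14.6 CPM against 64.00, 89.5 and 85.3 CPM. Neither overlapped, and outside the HT29 rule the means were 301 and 292 CPM. CDKN1A, the cell cycle inhibitor p21, was at 364, 526 and 387 CPM in high cells and 150.03, 184 and 172 CPM in the rest, a log2 fold change of 1.14 (SE 0.12) with an edgeR adjusted p of 1.64e-09. MYC fell by 1.26 on the log2 scale. CDKN1A and GDF15, a stress-induced cytokine with a log2 fold change of 0.63 (SE 0.12), were the 2 of 15 tested p53 targets that were higher. This share was near the 11.9% of all genes tested. BAX, BTG2 and TP53I3 were lower, beside 13.4% of all genes, and the list median was 0.22. Without control 1 BTG2 was the only 1 of these 3 to pass, and without LPS 1 the median was -0.08.

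Of 8 tested surface mucins and CEACAMs 5 were higher and 0 lower, with a median log2 fold change of 0.81. MUC13, a transmembrane mucin, was at 526, 575 and 689.7 CPM in high cells and 221, 296 and 241 CPM in the rest, a log2 fold change of 1.04 (SE 0.11). CEACAM7, an adhesion molecule of the differentiated colon, was at 330.1, 196 and 347 CPM against 118, 91.98 and 108 CPM, with 1.23 (SE 0.13), and CEACAM6 and CEACAM1 rose by 0.75 (SE 0.12) and 0.87 (SE 0.20). MUC1 was rarer, at 41.3, 40.9 and 18.2 CPM against 10.2, 4.91 and 10.8 CPM, with 1.82 (SE 0.39). Each of these genes was higher in high cells of every library. Of 12 tested tight junction genes 4 were higher and 0 lower, with a median of 0.50, and 2 were higher without control 2, with DESeq2, with separate UMIs, in thinned cells and in cells with a low MALAT1 share. CLDN4, a barrier-forming claudin, was at 1361, 1206 and 1149.5 CPM in high cells and 741, 588 and 559 CPM in the rest, a log2 fold change of 0.79 (SE 0.09), and F11R, OCLN and CLDN12 rose by 0.96 (SE 0.17), 0.67 (SE 0.20) and 0.54 (SE 0.18).

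Of 18 genes of cholesterol synthesis and uptake 10 were higher and 0 lower, with a median log2 fold change of 0.45. With separate UMIs for ranking and counting 6 were higher and the median was 0.33. INSIG1, a sterol-regulated brake on this pathway, was at 571, 1212 and 602 CPM in high cells and 269.6, 473 and 362 CPM in the rest, a log2 fold change of 0.88 (SE 0.11). SQLE, squalene epoxidase, a rate-limiting enzyme of the pathway, rose by 0.60 (SE 0.09) on the log2 scale. FDPS, farnesyl diphosphate synthase, overlapped between the groups and did not pass, with 468, 593 and 412 CPM against 498, 545 and 514 CPM.

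Around ERRFI1, 7 of 21 tested genes of EGF receptor signalling and feedback were higher and 0 lower, with a median log2 fold change of 0.09, but 0 were higher and 2 lower among cells with a MALAT1 share at or under the library median. The number higher was 2 without control 1, 3 without control 2, 4 without LPS 1 and 1 with DESeq2. The receptors ERBB3 and ERBB2 rose by 0.72 (SE 0.13) and 0.60 (SE 0.19) on the log2 scale, and the feedback inhibitors SPRED1 and DUSP5 by 0.77 (SE 0.20) and 1.06 (SE 0.29). Of 8 tested glucocorticoid-responsive genes 4 were higher and 1 lower, with a median of 0.21, and 2 were higher without control 2 and with DESeq2 and 1 in thinned cells and with separate UMIs. PER1, a clock gene, was at 24.1, 43.8 and 40.1 CPM in high cells and 9.22, 12.02 and 10.8 CPM in the rest, a log2 fold change of 1.55 (SE 0.34), and TSC22D3 (GILZ) rose by 0.49 (SE 0.13). ANGPTL4 and SGK1 in this list have been given above. Of 9 tested Wnt target and stem cell genes outside the rule RNF43 and ZNRF3 were higher, by 0.48 (SE 0.12) and 0.85 (SE 0.25), and 1, ASCL2, was lower, with -1.03 (SE 0.35), with a median of 0.30, and without control 2 none of these 3 passed. Genes that defined HT29 cells are described with no test. CD44 was at 547, 318 and 332 CPM in high cells and 242, 201 and 227 CPM in the rest, and KRT20 at 505, 461 and 453 CPM against 548, 528 and 553 CPM.

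Of 13 tested NRF2 targets 2 were higher and 4 lower, beside 11.9% and 13.4% of all genes tested, with a median log2 fold change of -0.49. These calls were not stable, since 0 were higher under 10 of 23 alternatives, DESeq2 and separate UMIs for ranking and counting included, and 0 were lower among cells with a MALAT1 share at or under the library median. GCLC and SLC7A11, which supply glutathione, rose by 0.65 (SE 0.24) and 0.46 (SE 0.15), and AKR1B10, AKR1C1, AKR1C3 and NQO1, reductases of carbonyls and quinones, had log2 fold changes of -3.14 (SE 0.73), -1.45 (SE 0.27), -0.49 (SE 0.15) and -0.59 (SE 0.14). Of 4 tested metallothioneins, MT1X rose by 0.74 (SE 0.21), a call lost without control 1, and MT1E, MT2A and MT1F had log2 fold changes of -2.58 (SE 0.41), -1.91 (SE 0.46) and -2.01 (SE 0.71), with a median of -1.96. The metallothionein and aldo-keto reductase genes have close copies, so reads may be split between them. MT1E was at 13.8, 5.84 and 3.65 CPM in high cells and 40.2, 33.4 and 50.2 CPM in the rest.

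Of 27 tested interferon-stimulated genes 6 were higher and 2 lower, with a median log2 fold change of -0.02, and 8 of 23 alternatives gave this median the other sign. Without control 1 the counts were 3 and 3, without control 2 they were 4 and 5, and without LPS 1 they were 10 and 2. IFI6, a mitochondrial protein induced by interferon, was at 729, 1066 and 956 CPM in high cells and 342, 448 and 556 CPM in the rest, a log2 fold change of 0.85 (SE 0.10). IFI27 went the other way, at 805, 856 and 715 CPM against 977, 1091 and 1422 CPM, with -0.73 (SE 0.11). Of 13 tested NF-kB targets and chemokines outside the rule NFKBIZ was higher, by 0.65 (SE 0.17), and IL32 lower, with -0.97 (SE 0.34), with a median of 0.16. These shares were below the 11.9% and 13.4% of all genes tested that were higher and lower. Without control 2, 0 of this list were lower and the median was -0.32. With DESeq2 0 were lower, and with separate UMIs for ranking and counting 0 were higher. Of 18 immediate early genes 2 were higher, a share near the 11.9% of all genes, and 1, MYC, was lower, with a median of -0.10. HSPA1B, an inducible heat shock protein with a near-identical copy, was 1 of the 2 higher genes, by 0.72 (SE 0.14). The number higher was 1 without control 2, without LPS 1, with RLE scaling and with DESeq2. Without control 1 the median of these genes was 0.02.

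Of 6 trypsinogen and inhibitor genes 5 were lower and 0 higher, with a median log2 fold change of -0.79. With the top 20% of HT29 cells 2 were lower and the median was -0.08, and among cells with a MALAT1 share at or under the library median 2 were lower and 1 higher. WFDC2, a secreted protease inhibitor, was at 526, 315 and 529 CPM in high cells and 1014, 543 and 505 CPM in the rest, a log2 fold change of -0.76 (SE 0.13). The libraries of this gene overlapped between the groups. PRSS1, a trypsinogen with close copies, was at 13.8, 20.4 and 36.5 CPM against 94.7, 51.3 and 48.7 CPM, and its log2 fold change of -1.66 (SE 0.30) turned to 0.35 when the top 20% of HT29 cells were taken. Of 6 tested squamous genes 1 was higher and 2 lower, with a median of -0.09. KRT16, a keratin of stressed squamous epithelium, rose by 1.51 (SE 0.33) on the log2 scale, but by 0.31 and no longer past the threshold without control 2. Its log2 fold change was -0.57 among cells with a MALAT1 share at or under the library median. SPRR3, a cornified envelope protein, fell by 2.42. Without NDRG1 in the score 3 of 7 were higher and 0 lower. Of 5 epithelial keratins KRT80 rose by 0.78 (SE 0.24), a call lost without control 1 or control 2, while 2 were lower and the median was -0.30. The number of these keratins lower was 1 without control 1 and 3 without LPS 1. Of 4 tested kallikreins only KLK12 passed, with a log2 fold change of -2.04 (SE 0.48) and a list median of -0.04. With DESeq2 0 kallikreins passed, and without control 1 or without LPS 1 there was also 1 higher. The sign of this median changed under 5 of 23 alternatives. Of 4 tested goblet markers outside the rule 2 were lower, TFF3, a trefoil peptide, at -1.46 (SE 0.17), and MUC5AC, a gel-forming mucin, at -1.01 (SE 0.26), with a median of -1.24. Of 8 tested YAP targets 1, F3 (tissue factor), rose by 1.22 (SE 0.41), a share near the 11.9% of all genes. CYR61, CTGF and LATS2 were lower, and the list median was 0.01. Without control 1 or control 2 these counts were 0 higher and 1 lower, and DESeq2 and separate UMIs gave 0 in both directions. Of the placental genes that mark a small group of cells in these cultures 2 of 6 were tested and 0 passed, with a median of -1.35.

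**Figure D4:**
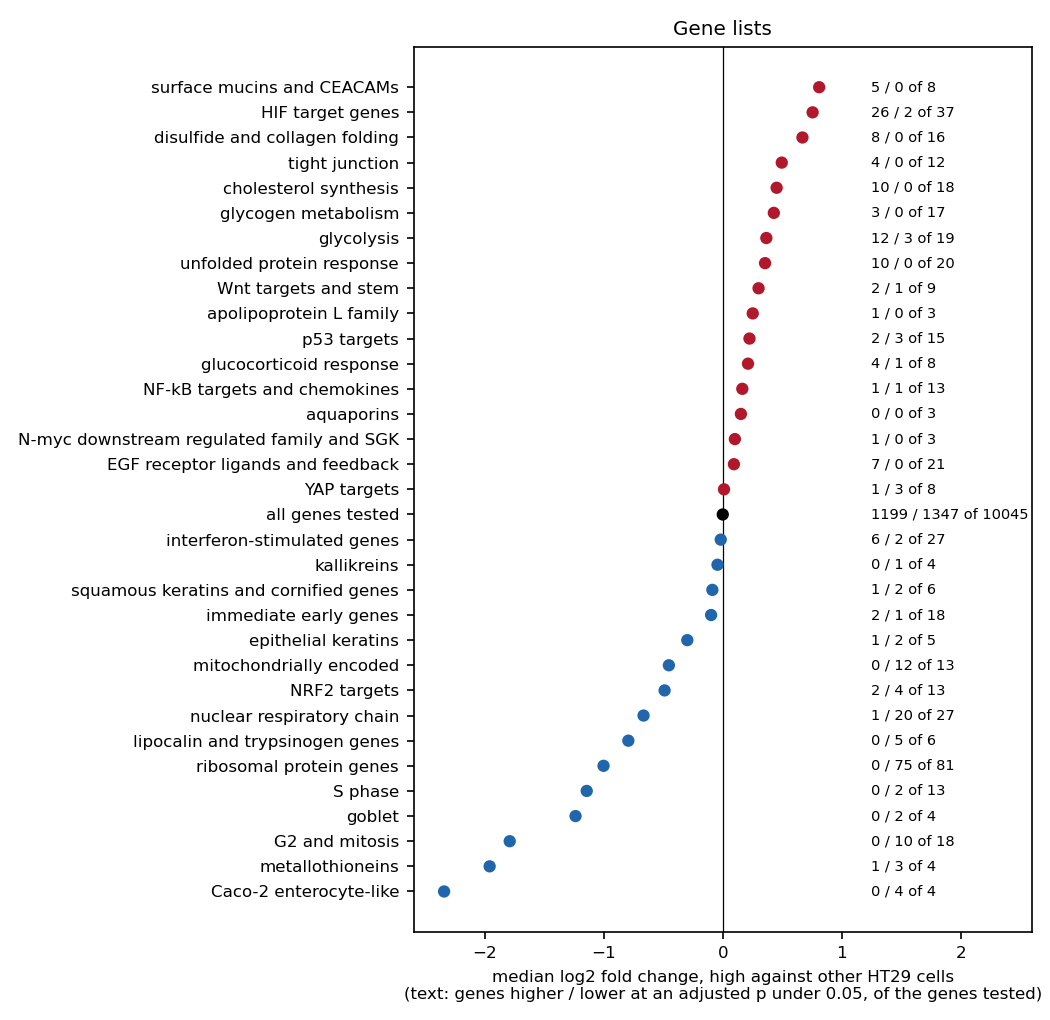
Median log2 fold change of high cells against the rest of the HT29 cells for the gene lists plotted, with the genes higher and lower of those tested on the right and all 10045 genes in black. Surface mucins (0.81), HIF targets (0.76) and folding enzymes (0.67) lie highest, and Caco-2 enterocyte markers (-2.34), which moved with a limit of the rule, lowest of these. Genes of the rule are left out of the lists, and marker lists of 1 or 2 tested genes are not plotted. The median changed sign under at least 1 alternative in some lists, among them the EGF receptor, YAP, interferon, kallikrein and immediate early gene lists.

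The 15 genes with the largest rise, at 20 CPM or more and with the same direction in every library, were SLC5A3, NDNF, MUC1, PKP1, IL1RAP, MSLN, UAP1L1, HK2, ANGPTL4, APOL2, GCC1, SLC6A8, ZNF516, LRRC8E and AGRN. MUC1, APOL2 and LRRC8E were under 20 CPM in every library of the rest, so such genes reached this limit through the high cells only. SLC5A3, the sodium-driven myo-inositol transporter that responds to osmotic stress, was at 791, 461 and 274 CPM in the high cells of control 1, control 2 and LPS 1 and 171, 84.4 and 68.5 CPM in the rest. The level differed between libraries in both groups while the high cells were above the rest in each, and the log2 fold change was 2.04 (SE 0.12) with an edgeR adjusted p of 6.51e-15. SLC6A8, the creatine transporter, was at 859.5, 838 and 825 CPM against 184, 320.1 and 225 CPM, with 1.62 (SE 0.12). MSLN, the surface protein mesothelin, was at 107, 140.2 and 113 CPM against 26.4, 34.3 and 32.7 CPM, with 1.75 (SE 0.19). AGRN, the heparan sulfate proteoglycan agrin, was at 890.5, 759 and 799 CPM against 221, 260.5 and 231 CPM, with 1.58 (SE 0.11). LRRC8E, a subunit of the volume-regulated anion channel, was rarer, at 34.4, 17.5 and 18.2 CPM against 4.35, 8.34 and 7.51 CPM, with 1.59 (SE 0.44). PKP1, a desmosomal plakophilin, and IL1RAP, the accessory chain of the interleukin-1 receptor, rose by 1.80 (SE 0.45) and 1.77 (SE 0.41).

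The 15 genes with the largest fall were SST, DKK1, REG4, GNRH2, NDUFAF4, AHSG, APOA2, NUSAP1, CDK1, FBLN1, GPC3, UBE2T, BEX3, BNIP3 and FABP1. For falls the limit of 20 CPM was set on the mean of the rest. SST, DKK1, REG4, NDUFAF4 and BNIP3 were under 20 CPM in every library of high cells, so such genes reached it through the rest only. The ranking thus favours genes with almost no counts in high cells. Somatostatin, the peptide of D cells encoded by SST, had 0 UMIs in the high cells and 29.97 CPM over the rest, at least 9.06-fold lower against a floor of 3 counts over the group, but its log2 fold change was 0.74 with the top 20% of cells and 1.46 with NDRG1 left out of the score. DKK1, a secreted Wnt inhibitor, also had 0 UMIs against 26.2 CPM, at least 7.91-fold lower. AHSG, APOA2, FABP1, GPC3, GNRH2, FBLN1 and BEX3 were most abundant outside the HT29 rule, with FABP1, the liver-type fatty acid binding protein, at a mean of 2357 CPM there, 325, 328 and 321 CPM in the rest and 17.2, 61.3 and 80.3 CPM in high cells. The enterocyte markers described above were also lower in high cells. NUSAP1, CDK1 and UBE2T are genes of cell division, and REG4, a secreted lectin, was at 0, 2.92 and 3.65 CPM against 26.9, 20.1 and 19.2 CPM. NDUFAF4, an assembly factor of complex I, was at 3.44, 2.92 and 0 CPM against 24.6, 17.7 and 23.4 CPM.

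The effect of LPS could be compared in 1 treated library against 2 controls, with 1 residual degree of freedom and on the assumption that the LPS library varies as the controls do. In the high cells 4 of 5320 genes passed an adjusted p of 0.05 in edgeR (0.0752%), with 223 at an unadjusted p under 0.05, and 0 passed in DESeq2, with 10 at an unadjusted p under 0.05. MUC5AC was at 13.8, 23.4 and 94.9 CPM in control 1, control 2 and LPS 1, a log2 fold change of 2.27 (SE 0.53), and 19 of its 26 UMIs in LPS 1 came from 1 cell. TFF3 was at 196, 155 and 416 CPM, with 1.22 (SE 0.29), and was found in 10 of 70, 15 of 100 and 30 of 85 high cells. In control 1 a single cell held 44 of its 57 UMIs, and without the richest cell of each library TFF3 was at 45.5, 94.1 and 282 CPM. In cells thinned to 1500 UMIs its log2 fold change was -0.18. ISG15, a ubiquitin-like protein induced by interferon, was at 560.4, 853 and 285 CPM, with a log2 fold change of -1.34 (SE 0.31). MALAT1 was lower in LPS 1, with -0.30 (SE 0.06). The score list itself, read without a test, was at 9647, 11799 and 10554 summed CPM in control 1, control 2 and LPS 1. The rule ranked cells on these genes with a separate threshold in each library, so these sums cannot compare LPS with control. The summed HIF list was at 13096, 13517 and 12433 CPM.

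Whether the difference between high cells and the rest was another with LPS was tested by the interaction of both terms. Of 10045 genes 10 passed in edgeR (0.0996%), with 517 at an unadjusted p under 0.05, and 0 passed in DESeq2, with 23 at an unadjusted p under 0.05. Interferon-stimulated genes made up 5 of them. ISG15 was at 542, 481 and 971 CPM in the rest of control 1, control 2 and LPS 1, where LPS 1 was highest, and at 560.4, 853 and 285 CPM in high cells, where LPS 1 was lowest. The interaction was -2.22 (SE 0.23) on the log2 scale, with an edgeR adjusted p of 7.57e-18. In control 2, 136 of the 292 ISG15 UMIs of high cells came from 1 cell of 5958 UMIs. Without the high cell richest in ISG15 in each library, the level of high cells was 435, 464 and 223 CPM. The same cell of control 2 gave 28 of 36 UMIs of IFIT1, 24 of 29 of IFIT3 and 34 of 35 of OASL. Most high-cell UMIs of these 3 genes in control 2 thus came from a single cell. In LPS 1 the high cell richest in ISG15 gave 10 of 13 UMIs of IFIT1, 4 of 4 of IFIT3 and 3 of 3 of OASL. Without the high cell richest in ISG15, the high-cell level of IFIT3 was 3.54, 14.9 and 0 CPM in control 1, control 2 and LPS 1. That of IFIT1 was 7.08, 23.8 and 11.1 CPM, still highest in control 2. In the rest IFIT1 was at 20.2, 18.6 and 96.1 CPM and IFIT3 at 10.8, 8.83 and 67.6 CPM, highest in LPS 1. The other 5 genes were TFF3, SOX4, MDK, SLPI and WFDC2. SOX4, a transcription factor of progenitor cells, was at 395, 371 and 562 CPM in high cells and 656, 660.04 and 443 CPM in the rest, so LPS 1 was the highest library of the former and the lowest of the latter, with an interaction of 1.14 (SE 0.23) and an edgeR adjusted p of 9.26e-04.

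**Figure D5:**
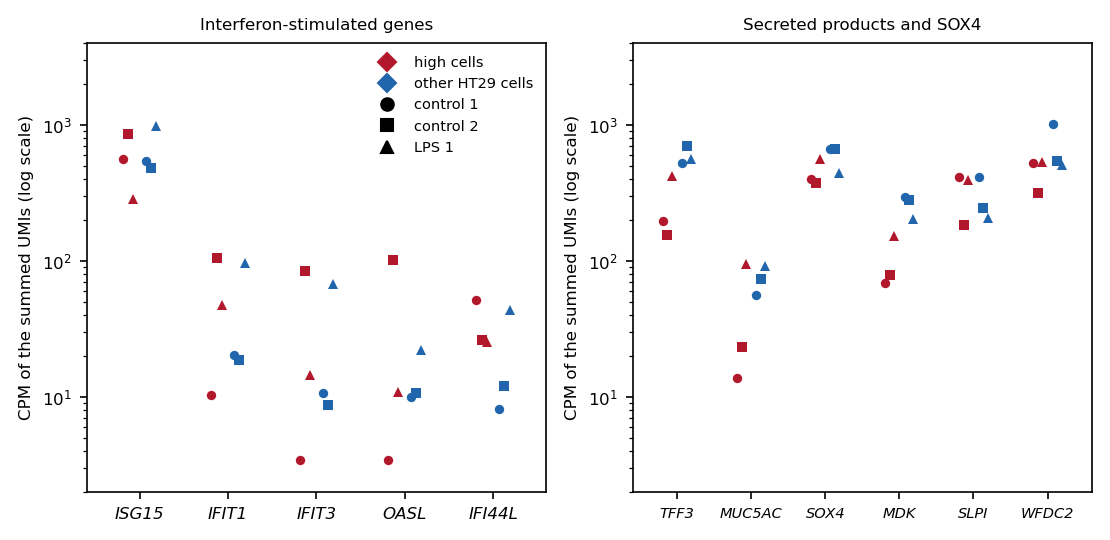
CPM (log scale) in high cells (red) and the rest of the HT29 cells (blue), one point per library, for the 10 genes of the interaction test and MUC5AC. In the rest, LPS 1 (triangle) is highest for ISG15, IFIT1 and IFIT3, while in high cells ISG15 is lowest in LPS 1. Most UMIs behind the high-cell points of control 2 (square) for IFIT1, IFIT3 and OASL come from 1 cell.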

How the data were processed

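Single-cell RNA was sequenced in 2 control libraries and 1 LPS-treated library of the co-culture. The authors deposited UMI counts per gene and barcode for 33538 genes, made from reads aligned to GRCh38 with Cell Ranger (version 3.1.0 in the matrix headers), with no normalization and before their cell filters. The members and the gene lists were chosen with earlier results of these data known.

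Barcodes were filtered and ranked by the rule given above in Python 3.11.15 (numpy 2.4.6, scipy 1.17.1, pandas 2.3.3). UMI counts were summed over the high cells and over the rest of each library, and CPM values scale each sum to a common total. The sums were compared in R 4.3.3 with edgeR 4.0.16 (glmQLFit and glmQLFTest, TMM scaling, filterByExpr, the library as a term, Benjamini-Hochberg adjustment over all genes tested, threshold 0.05), with 2 residual degrees of freedom, and 1 for each LPS comparison. The LPS comparison of high cells had no covariate. Lists were described by the number of members past the threshold and their median, with no test of the list. Scrublet in scanpy 1.11.5 scored doublets, its automatic threshold marked 0 cells, and removal of the 6% of kept cells with the highest scores was an alternative.

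Genes named are the score genes and listed markers, members of the lists that were past the threshold or among the 6 most abundant, the 15 largest rises and 15 largest falls at 20 CPM or more with 1 direction in every library, and the 10 largest changes past the threshold of each LPS comparison. Some genes that this rule takes are not reported here. Alternatives were RLE scaling, DESeq2 1.42.0, no filter on low counts, a mean of 10 CPM, the top 5% and 20% of cells, cells thinned to 1500 UMIs, separate UMIs for ranking and counting, each score gene left out, a limit of 0.1% on APOA1 and APOC3, the cell minimums of control 1 in all libraries, no library term and each library left out. Those on the HT29 to Caco-2 list ratio, the MALAT1 share and counts without ribosomal, mitochondrial and MALAT1 UMIs were chosen after seeing the data.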

Additional observations from a re-analysis of the deposited data

Results flagged for a closer look

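In 10 genes the interaction of LPS with the comparison of high cells and the rest passed in edgeR, given here as the log2 change in high cells minus that in the rest. It was -2.22 for ISG15, -4.42 for IFIT3, -2.64 for IFIT1, -3.35 for OASL and -2.65 for IFI44L. It was 1.41 for TFF3, 1.14 for SOX4, 1.56 for MDK, 1.10 for SLPI and 0.96 for WFDC2. The sign turned for TFF3 in thinned cells (-0.24), and for IFIT1 (0.49) and OASL (2.06) with the top 5% of cells. The treated side is 1 library, the fit has 1 residual degree of freedom and DESeq2 called 0 genes, so these values compare the libraries and do not establish a difference with LPS. In addition, 1 high cell of control 2 held 34 of the 35 UMIs of OASL and 24 of the 29 UMIs of IFIT3 there, and 1 high cell of LPS 1 held 3 of 3 and 4 of 4. The part of these cells in these results was not tested.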

How the results depend on the processing

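For high cells against the rest, the number of genes past the threshold was 1341 with DESeq2, 1211 in thinned cells, 1480 with separate UMIs for ranking and counting and 1409 in cells with a MALAT1 share at or under the library median, against 2546, and it ranged from 1689 to 2224 with a library left out. Without filtering on low counts 784 genes were higher and 1576 lower, against 1199 and 1347. Without the replicate block (the library term) 2237 genes passed. For LPS in high cells 4 genes passed, against 1 with RLE scaling, 0 with DESeq2, 1 with no filter, 1 in thinned cells and 1 above a common score. For the interaction 10 genes passed, against 0 with DESeq2, 4 with the top 5% of cells, 2 in thinned cells, 5 with the highest doublet scores removed and 4 above a common score. No paired analysis was possible because the control and LPS libraries share fewer than 2 replicate numbers, beyond the pairing of high cells and the rest within each library in the interaction, and leaving out a control there leaves no residual degrees of freedom. The cause of these changes was not tested.

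Of 135 genes named for high cells against the rest 133 passed, 129 of these kept their sign under all 23 alternatives and 63 passed under every alternative that gave a value. Signs were reversed for PRSS1 (0.35) and SST (0.74) with the top 20% of cells, SST without NDRG1 in the score (1.46), ISG15 without a library (-1.01 to 0.26), and KRT16 (-0.57) and MALAT1 (-0.13) in cells with a low MALAT1 share, a selection on MALAT1 itself. In thinned cells TFF3 was reversed for LPS (-0.18) and for the interaction (-0.24), and with the top 5% of cells the interaction was reversed for IFIT1 (0.49) and OASL (2.06). The shares above a common score moved by less than their intervals. Depth limits genes of few counts, since the high cells of a library hold 274030 to 342390 UMIs.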
